A study of Mus musculus with 6 samples.

Results

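The interferon-gamma-induced GTPases described here are 10 genes of the guanylate-binding protein (GBP) and immunity-related GTPase (IRG) families. They are the rows of the deposited count table named Gbp2, Gbp3, Gbp6, Gbp7, Gbp8, Gbp9, Igtp, Irgm1, Irgm2 and Iigp1, 10 of 23366 gene symbols, and all 10 were present and passed the filter on low counts. They were measured by RNA sequencing in regulatory T (Treg) cells, the CD4+ T cells that restrain immune responses and are defined by the transcription factor Foxp3. Liver Treg cells (n = 3 libraries) were set against spleen Treg cells (n = 3 libraries), which in both tissues were CD4+GFP+ cells sorted from Foxp3GFP knock-in mice aged 12 days. The reporter allele, in which green fluorescent protein marks Foxp3 expression, is thus shared by both groups, and no other treatment is labelled. The labels do not say whether a library came from 1 animal or a pool, so the spread between libraries may be in part technical. Liver 3 and spleen 3 held the sex-linked transcripts Xist and Ddx3y together, as given below. The 10 symbols were chosen with the liver and spleen values of these same libraries known. Their tissue differences are therefore given as a description with no p-value, and tests are given only for genes outside the 10.

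GBPs and IRGs are GTPases whose genes are among the most strongly induced targets of interferon-gamma in mouse cells. The cytokine binds the receptor chains Ifngr1 and Ifngr2, the kinases Jak1 and Jak2 pass the signal on, and transcription factors then act on GAS elements of target genes and, as Irf1 does, on related ISRE elements. The proteins are best known from infected macrophages and fibroblasts, where they assemble on the membranes of vacuoles that hold microbes. They are also expressed in T cells, and mouse CD4+ T cells that lack Irgm1 survive poorly when exposed to interferon-gamma.

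Upstream sequence of RefSeq (GRCm38.p6) start sites was at hand for 6 of the 10 members. For Gbp6, Gbp8, Gbp9 and Iigp1 it was not, so they were not searched. The 120 bases upstream of the first listed start are shown for the 6 because all of them carry the sequence of an interferon element. Each is written 5′ to 3′ on the strand of the gene, and capitals mark matches to the ISRE letters, GAAA then any 2 bases then GAAA, on either strand or to the GAS letters TTCNNNGAA, which read the same on both strands. The windows are chr3:142620543-142620662 (+) for Gbp2, chr3:142559924-142560043 (+) for Gbp3 and chr3:142530216-142530335 (+) for Gbp7. Those of the IRG genes are chr11:58199436-58199555 (+) for Igtp, chr11:48871421-48871540 (-) for Irgm1 and chr11:58214857-58214976 (+) for Irgm2.
Gbp2: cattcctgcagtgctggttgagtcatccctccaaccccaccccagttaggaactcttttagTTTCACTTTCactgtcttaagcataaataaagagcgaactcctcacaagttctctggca
Gbp3: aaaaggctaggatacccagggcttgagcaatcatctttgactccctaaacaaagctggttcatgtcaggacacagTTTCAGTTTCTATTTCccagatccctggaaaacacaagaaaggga
Gbp7: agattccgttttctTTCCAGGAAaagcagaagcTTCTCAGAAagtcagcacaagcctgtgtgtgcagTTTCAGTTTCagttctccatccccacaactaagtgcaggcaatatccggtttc
Igtp: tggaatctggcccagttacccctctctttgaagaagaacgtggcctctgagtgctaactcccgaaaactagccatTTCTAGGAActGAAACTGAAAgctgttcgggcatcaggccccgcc
Irgm1: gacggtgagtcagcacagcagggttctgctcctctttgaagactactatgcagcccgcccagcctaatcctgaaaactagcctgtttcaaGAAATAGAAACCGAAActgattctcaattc
Irgm2: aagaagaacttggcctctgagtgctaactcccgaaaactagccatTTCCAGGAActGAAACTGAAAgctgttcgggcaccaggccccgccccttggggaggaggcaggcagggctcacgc

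Over the whole 250 bases upstream, all 6 genes held an ISRE match, against 2.98% of the 32851 upstream windows of the same length in the RefSeq table. The match began 59 bases before the start in Gbp2, 53 in Gbp7, 34 in Igtp and 64 in Irgm2. Gbp3 and Irgm1 each held a pair of ISRE matches that overlap, beginning 45 and 39 bases before the start in Gbp3 and 30 and 24 in Irgm1. A GAS match was present in 3 of the 6, Gbp7, Igtp and Irgm2, against 7.02% of all windows. Both kinds of match occurred together in 0.332% of all windows, and no GAS match overlapped an ISRE match in these 3 genes. Igtp and Irgm2 carry the pair in the same arrangement, with the GAS letters ending 2 bases upstream of the letters GAAACTGAAA. The second start listed for Gbp3 had neither match in its 250 bases. Of 12 further family genes with upstream sequence at hand, 7 had an ISRE match and 5 a GAS match. A match is a description of the letters and not evidence of binding.

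Before the values of the members, the libraries need a short description. Counts in genes were between 8437055 and 10951720 in the liver libraries and between 1199410 and 11408960 in the spleen libraries. The shallowest, spleen 1, stood apart from the others, and a level of 3 counts corresponded to 2.58 CPM there, where CPM are counts scaled to the size of the library, and to at most 0.361 CPM elsewhere. Foxp3 averaged 1266 ± 58.4 CPM in liver, against 1160 ± 57.6 CPM in spleen (SD, n = 3 each, edgeR adjusted p = 0.384). Of 7 tested Treg markers 2 rose in liver and 1 fell. Ikzf2, which encodes Helios, averaged 822 ± 104 CPM in liver, against 642 ± 22.9 CPM in spleen (edgeR adjusted p = 0.0241). The inhibitory receptor gene Ctla4 averaged 733 ± 34.0 CPM in liver, against 400 ± 86.2 CPM in spleen (edgeR adjusted p = 5.00e-05), and Il2ra, which encodes CD25, averaged 408 ± 19.1 CPM in liver, against 620 ± 32.5 CPM in spleen (edgeR adjusted p = 0.000171). Other cell types that could be in the sort were looked for through marker lists, and their part in the results below was not tested. Of 10 tested macrophage markers 9 fell in liver, with summed levels of 74.9 to 86.3 CPM in liver, against 144 to 220 CPM in spleen, Vsig4 at 0 in both tissues and Mrc1 at 0 in liver. Averaged over both tissues, Lyz2 and Cd68 were the most abundant of the list, at 59.6 and 10.4 CPM in liver, against 93.9 and 16.6 CPM in spleen. Markers of NK, innate lymphoid and CD8 T cells went the other way in part. Of 10 tested, 5 were higher in liver and 1 lower, while Cd8a and Cd8b1 did not pass (edgeR adjusted p = 0.656 and 0.897). The list summed to 105 to 134 CPM in liver, against 47.7 to 57.3 CPM in spleen. Nkg7 and Prf1 were its most abundant genes over both tissues, although Eomes and Cd8b1 were above Prf1 in spleen. Nkg7 alone averaged 63.1 CPM in liver, against 23.8 CPM in spleen. Klra8 was at 0 in both tissues and Klra7 at 0 in spleen.

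The remaining marker lists differed in direction. Those of B cells, granulocytes and erythroid cells had lower sums in liver, while some hepatocyte and dendritic cell markers rose. Of 9 B cell markers 4 fell, with sums of 140 to 165 CPM in liver, against 228 to 332 CPM in spleen, with Cd79a and Cd79b the most abundant. All 9 tested granulocyte markers fell, with sums of 243 to 282 CPM in liver, against 470 to 786 CPM in spleen. Ngp and Ltf were the most abundant over both tissues, although S100a9 was above Ltf in liver. Of 8 erythroid markers 7 fell, with sums of 102 to 129 CPM in liver, against 219 to 282 CPM in spleen. Tfrc and Gata1 were the most abundant over both tissues, while Slc4a1 averaged 0.0611 CPM in liver, against 50.3 CPM in spleen. Hepatocyte markers summed to 14.0 to 26.8 CPM in liver, against 15.4 to 20.7 CPM in spleen. Trf contributed 9.97 CPM in liver, against 17.2 CPM in spleen. Alb was at 5.18 CPM in liver and 0 in spleen, where 8 others of the list were also at 0. Of 3 tested hepatocyte markers 2 rose in liver, Alb among them (edgeR adjusted p = 9.86e-05), and 1, Trf, fell (edgeR adjusted p = 0.0393). Dendritic cell markers summed to 295 to 312 CPM in liver, against 234 to 275 CPM in spleen, almost all of it Ccr7 and Bst2, which T cells also express. Of 6 tested dendritic cell markers 1, Ccr7, rose in liver (edgeR adjusted p = 0.0369) and 0 fell. Endothelial markers summed to 184 to 226 CPM in liver, against 242 to 262 CPM in spleen, almost all of it Pecam1. Stab2 averaged 0.403 CPM in liver, against 10.8 CPM in spleen. Lyve1 was at 0 in both tissues. In such bulk libraries a smaller number of cells of a type and less RNA per cell cannot be told apart.

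Together the 10 members made up 986, 1053 and 1183 CPM in the liver libraries, against 706, 719 and 782 CPM in the spleen libraries. The sums did not overlap between tissues. The 6 GBP members summed to 742, 774 and 824 CPM in liver, against 510, 534 and 550 CPM in spleen. The 4 IRG members summed to 244, 280 and 359 CPM in liver, against 195, 184 and 232 CPM in spleen, with liver 1 only just above spleen 3. The median log2 fold change of the 10, liver minus spleen, was 0.59, with 9 positive values and 1 negative, while the median over all 11716 genes tested was -0.01. By edgeR's quasi-likelihood test at an adjusted p under 0.05, 7 of 10 were called higher in liver and 0 lower, where 9.28% of all genes tested were called higher and 6.90% lower. At an unadjusted p under 0.05 the counts were 8 and 0, and by DESeq2 6 and 0. Over all 11716 genes they were 1779 and 1542 unadjusted, and 1020 and 822 by DESeq2. All 3 liver libraries lay above all 3 spleen libraries for 5 members and below them for 1, where this held for 17.7% and 15.2% of all genes tested. With upper-quartile scaling in place of TMM, 954 of all genes were called higher and 1014 lower, against 1087 and 808. Since the members were chosen with this contrast known, nothing is read from these shares. Without spleen 2 the number of members called higher was 3, where 722 of 11942 genes were. Without the shallow library spleen 1 it was 6, where 1245 of 12079 genes were.

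**Figure D1:**
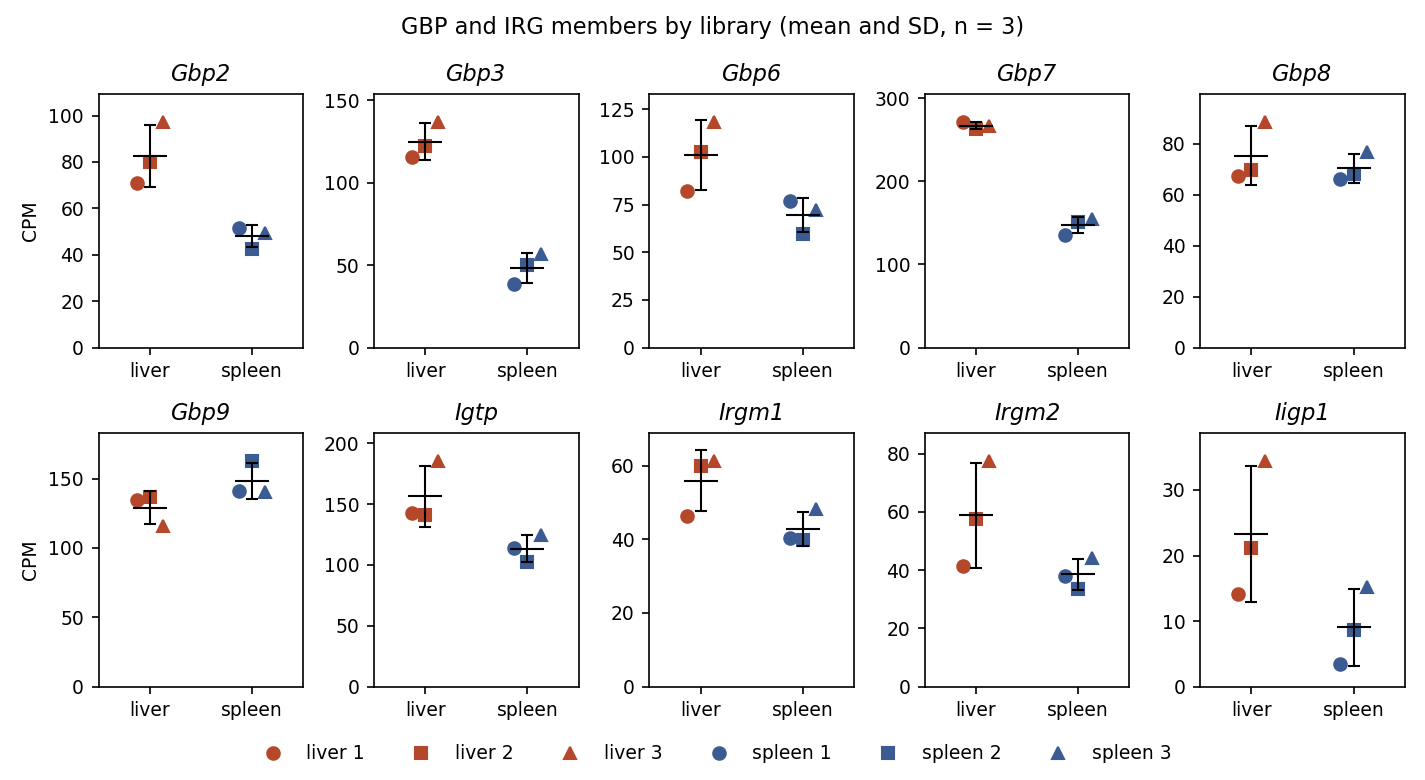
CPM of each of the 10 members in 3 liver (left in each panel) and 3 spleen (right) libraries, with the mean and SD of each tissue as black bars and each axis starting at 0. Gbp2, Gbp3, Gbp6, Gbp7 and Igtp have all liver libraries above all spleen libraries, Gbp9 has them all below, and liver 3 (triangle) is the highest liver library for 8 of the 10.

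Among the GBP members, those of the chromosome 3 cluster had the larger differences. Deletion of this cluster in mice weakens resistance to Toxoplasma gondii. Gbp3 was at 115, 123 and 137 CPM in the liver libraries and at 38.7, 50.04 and 56.7 CPM in the spleen libraries. The lowest liver library was above the highest spleen library by a wide margin, and the log2 fold change was 1.30 ± 0.13 (SE), the largest of the 10. Gbp7, which was reported in mice to promote assembly of the phagocyte oxidase on vacuoles, had 272, 262 and 267 CPM in liver, against 136, 151 and 154 CPM in spleen. Its liver libraries were nearly equal, and its log2 fold change of 0.84 ± 0.09 carried the smallest error of the 10. Gbp2, a GBP that is recruited to pathogen vacuoles, had 70.8, 79.8 and 97.3 CPM in liver, against 51.6, 42.7 and 49.6 CPM in spleen. The tissues did not overlap, the liver libraries spread more widely than the spleen libraries, and the log2 fold change was 0.81 ± 0.14.

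The members on chromosome 5 differed among themselves. Gbp6 had 81.9, 103 and 118 CPM in liver, against 76.6, 59.6 and 72.2 CPM in spleen, with a log2 fold change of 0.57 ± 0.14. The tissues did not overlap, but liver 1 and spleen 1 lay close together. Gbp8 had 67.3, 69.7 and 88.5 CPM in liver, against 66.3, 67.9 and 76.8 CPM in spleen. Its libraries overlapped and its log2 fold change was 0.08 ± 0.13, with a value of -0.055 when liver 3 was left out. Gbp9 had 135, 137 and 116 CPM in liver, against 141, 163 and 140 CPM in spleen. It was the only member with a negative value, -0.21 ± 0.10, and all liver libraries lay below all spleen libraries, although liver 2 and spleen 3 differed by only a few CPM.

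Of the IRG genes, Irgm1, Irgm2 and Igtp encode the regulatory IRG proteins, which keep the effector IRG proteins inactive on the cell's own membranes. Igtp, also called Irgm3, had 142, 141 and 186 CPM in liver, against 114, 102 and 124 CPM in spleen. The tissues did not overlap and the log2 fold change was 0.47 ± 0.12. Irgm2 had 41.5, 57.4 and 77.5 CPM in liver, against 37.9, 33.7 and 44.1 CPM in spleen. Its liver libraries spanned nearly the whole range of the gene, liver 1 lay below spleen 3, and the log2 fold change was 0.61 ± 0.19, with 0.36 when liver 3 was left out. Irgm1 had 46.3, 60.0 and 61.3 CPM in liver, against 40.5, 39.7 and 48.2 CPM in spleen. Liver 1 again lay below spleen 3, and the log2 fold change was 0.37 ± 0.15.

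Iigp1, also called Irga6, is an effector IRG that coats parasite vacuoles in mouse cells, and it was the least abundant member. It was at 14.1, 21.2 and 34.5 CPM in liver, from 117, 231 and 372 counts, and at 3.44, 8.65 and 15.1 CPM in spleen, from 4, 101 and 177 counts. Liver 1 lay just below spleen 3, so the tissues overlapped, and the log2 fold change of 1.12 ± 0.33 had the largest error of the 10. It was 0.72 without liver 3 and 1.63 without spleen 3. The lowest value, in spleen 1, rests on 4 counts and is close to the 3-count level of that library.

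Levels of different genes were compared per kilobase of transcript, with the median length of the protein-coding transcripts in GENCODE M21. Igtp was the highest member in both tissues, at 85.3 ± 13.9 CPM per kilobase in liver and 61.9 ± 6.09 in spleen (SD, n = 3 each). Iigp1 was the lowest in both, at 7.94 ± 3.53 CPM per kilobase in liver and 3.10 in spleen, where its libraries were at 1.18, 2.96 and 5.17. The highest member was thus 10.7 times the lowest in liver and 19.95 times the lowest in spleen. In liver the order from the highest was Igtp, Gbp3, Gbp7, Gbp6, Gbp8, Gbp9, Gbp2, Irgm1, Irgm2 and Iigp1. Of the 9 neighbouring pairs in that order, 3 did not overlap between libraries at the median length. They were Gbp3 above Gbp7, Gbp7 above Gbp6, and Irgm2 above Iigp1. In spleen the order was Igtp, Gbp9, Gbp7, Gbp8, Gbp3, Gbp6, Irgm1, Gbp2, Irgm2 and Iigp1. Of its 9 neighbouring pairs 5 did not overlap, while Gbp7 overlapped Gbp8, Gbp8 overlapped Gbp3, Gbp3 overlapped Gbp6 and Irgm1 overlapped Gbp2. Gbp9 was at 36.5 ± 3.32 CPM per kilobase in liver, where it ranked 6, and at 41.8 ± 3.599 in spleen, where it ranked 2. Gbp3 was at 76.3 ± 6.73 CPM per kilobase in liver, where it ranked 2, and at 29.6 ± 5.53 in spleen, where it ranked 5. Its place depends on the length used: with the longest transcript Gbp3 ranked 3 in liver and 8 in spleen. Gbp7 then ranked 2 in liver, above Gbp3 (47.6 against 46.6 CPM per kilobase), and 5 in spleen. Gbp2 then ranked 5 in liver and 6 in spleen, and Gbp6 ranked 4 in spleen. Gbp8 then ranked 6 in liver and 3 in spleen, and Gbp9 ranked 7 in liver. Igtp stayed the highest and Iigp1 the lowest in both tissues.

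The families also hold genes outside the 10, which were tested. Of 11 with enough counts, 3 rose in liver, 0 fell and 8 did not pass. At an unadjusted p under 0.05 the edgeR counts were 5 higher and 0 lower, and by DESeq2 2 and 0. For this and the later lists, the unadjusted edgeR counts over all 11716 genes were 1779 higher and 1542 lower. DESeq2 called 1020 higher and 822 lower over all genes. Gbp5, a chromosome 3 gene that promotes inflammasome assembly, had 51.2, 59.7 and 62.4 CPM in liver, against 31.8, 45.0 and 35.7 CPM in spleen (liver minus spleen log2 value 0.57 ± 0.15 SE, as in all brackets that follow, edgeR adjusted p = 0.0118). Gbp4 had 232, 234 and 221 CPM in liver, against 203, 183 and 184 CPM in spleen (0.28 ± 0.09, edgeR adjusted p = 0.0437). Gbp10 had 16.7, 17.4 and 19.5 CPM in liver, against 8.61, 11.5 and 11.7 CPM in spleen (0.68 ± 0.21, edgeR adjusted p = 0.0348). In each of these 3 genes every liver library lay above every spleen library. Without spleen 3 none of the 3 passed (edgeR adjusted p = 0.0773, 0.180 and 0.0870 for Gbp5, Gbp4 and Gbp10), and neither did any without liver 2 (edgeR adjusted p = 0.0527, 0.148 and 0.0841). Gbp4 and Gbp10 also missed it without liver 1 (edgeR adjusted p = 0.137 and 0.0609) or spleen 2 (edgeR adjusted p = 0.215 and 0.114), and Gbp10 without liver 3 (edgeR adjusted p = 0.102).

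Among the tested family genes that did not pass were the effector IRG genes Tgtp2, Ifi47 and Gm12250, the mouse gene for Irgb10. Tgtp2 averaged 28.9 ± 2.75 CPM in liver, against 20.04 ± 10.7 CPM in spleen (liver minus spleen log2 value 0.32 ± 0.23, edgeR adjusted p = 0.394). Ifi47 averaged 114 ± 18.4 CPM in liver, against 95.7 ± 12.8 CPM in spleen (0.27 ± 0.13, edgeR adjusted p = 0.181). Gm12250 averaged 32.6 ± 9.28 CPM in liver, against 20.01 ± 8.62 CPM in spleen (0.54 ± 0.23, edgeR adjusted p = 0.135). Gbp1, whose current symbol is Gbp2b, had 0.962, 4.49 and 1.94 CPM in liver, against 2.58, 0.428 and 0.513 CPM in spleen (1.95 ± 0.76, edgeR adjusted p = 0.0924), and without spleen 1 its edgeR adjusted p was 0.0390. Irgq had a log2 fold change of 0.18 ± 0.17, 9930111J21Rik1 of -0.24 ± 0.13, Gm12185 of -0.85 ± 0.60 and Gm5431 of 0.45 ± 0.70, with edgeR adjusted p-values between 0.231 and 0.729. Gm12185 had an edgeR adjusted p of 0.387, and of 0.0498 without liver 3. Gbp11, Irgc1, Gm4951, F830016B08Rik and 9930111J21Rik2 were under 1 CPM on average in each tissue, and Tgtp1, Gvin1, Gm4070 and Gm8989 were listed at 0 in all 6 libraries.

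Several of these rows share sequence, so the counting may have split or dropped reads between them. Of the 50-base stretches in GENCODE M21 protein-coding transcripts, 90.2% of those of Gbp6 and 82.5% of those of Gbp10 also occur in a transcript of another gene. For Gbp8 the share was 21.2%, for Gbp7 12.7%, for Igtp 11.8%, for Gbp9 9.56% and for Irgm2 7.77%. It was 3.83% for Gbp3, 3.20% for Iigp1, 2.07% for Gbp2 and 0.782% for Irgm1. Tgtp1 and Tgtp2 shared 81.2% and 90.6% of theirs with other genes, so the 0 listed for Tgtp1 cannot be read as absence. For 9930111J21Rik1 the share was 82.9% and for Gm5431 37.3%. The levels of Gbp6, Gbp10, Tgtp2 and 9930111J21Rik1 are uncertain for this reason.

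**Figure D2:**
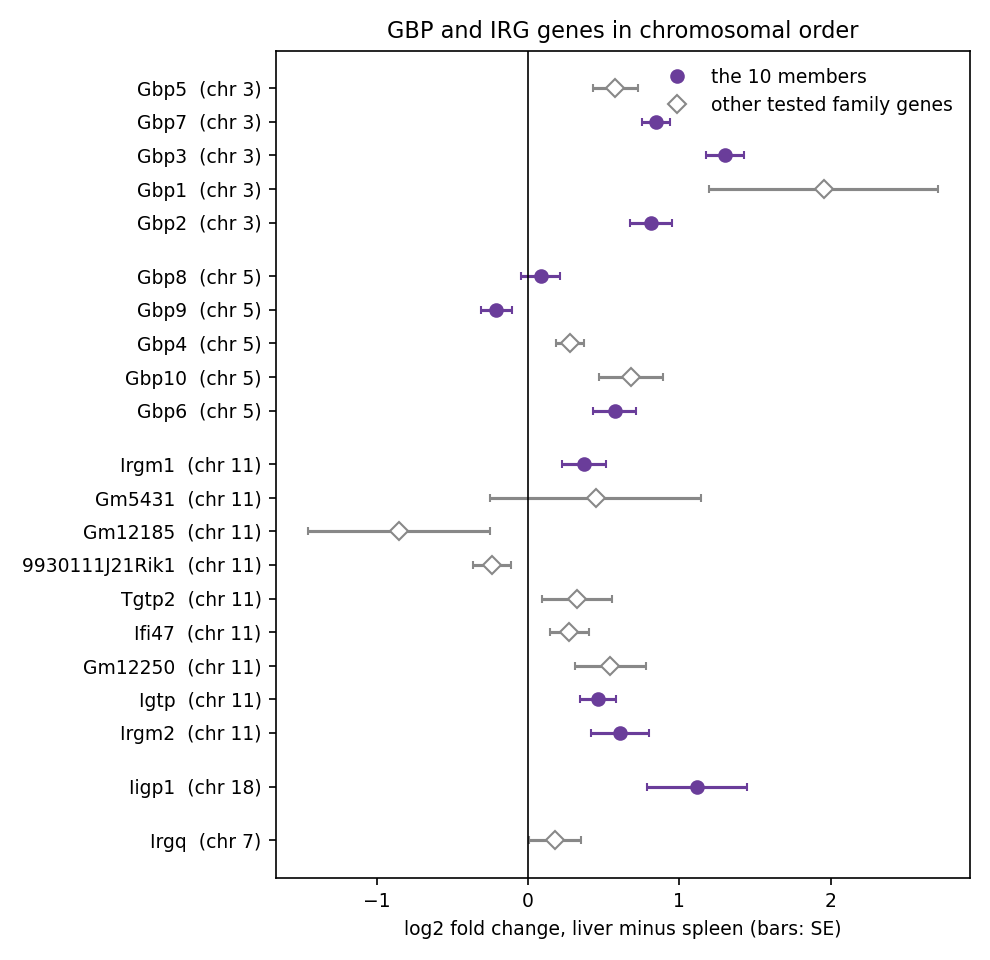
Log2 fold change, liver minus spleen, with SE bars, for the 10 members (filled circles) and 11 other tested family genes (open diamonds), in order along each chromosome. The 5 tested genes of the chromosome 3 cluster lie between 0.57 and 1.95, while on chromosome 5 the values run from -0.21 for Gbp9 to 0.68 for Gbp10. The 1.95 is that of Gbp1, which had low counts, an SE of 0.76 and did not pass (edgeR adjusted p = 0.0924). The next value on chromosome 3 is 1.30 for Gbp3.

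Within each tissue most members were highest in the same library. Liver 3 held the highest liver value for 8 of the 10 members, while 38.6% of all genes tested were highest in liver 3. Liver 1 held the lowest liver value for 7 members. The share of all genes lowest in liver 1 was not computed, so nothing is read from that count. Spleen 3 held the highest spleen value for 7 members, against 30.9% of all genes tested. Relative to the mean of its tissue, the median member was at -0.18, -0.03 and 0.25 on the log2 scale in liver 1, liver 2 and liver 3, and at -0.07, -0.08 and 0.13 in spleen 1, spleen 2 and spleen 3. The median of all genes was within 0.02 of its tissue mean in every library. In liver the median IRG member was at -0.36 in liver 1 and 0.35 in liver 3, and the median GBP member at -0.10 and 0.06. In spleen the median IRG member was at -0.046 in spleen 1 and 0.19 in spleen 3, and the median GBP member at -0.094 and 0.098.

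The libraries also differed in sex-linked transcripts, which the labels do not give. Over a level of 10 CPM, liver 1 and spleen 1 held Xist but not Ddx3y. Liver 2 and spleen 2 held Ddx3y but not Xist, and liver 3 and spleen 3 held both, each at a lower level. Xist reached 1148 CPM (liver 1) and 1299 CPM (spleen 1), but 462 CPM (liver 3) and 327 CPM (spleen 3). Ddx3y reached 117 CPM (liver 2) and 116 CPM (spleen 2), but 53.3 CPM (liver 3) and 76.8 CPM (spleen 3). Whether liver 3 and spleen 3 were pools of animals of both sexes was not tested. The libraries with both transcripts were thus those in which most members were highest within their tissue. In an edgeR fit with these kinds as a block, added after seeing the data, the median log2 fold change of the members was 0.62. Compared within each kind, the log2 ratio of liver over spleen was positive in all 3 for every member but Gbp9, for which it was negative in all 3. For Gbp2, Gbp3, Gbp6, Gbp7, Igtp and Gbp9 the tissues did not overlap, so these signs were fixed in advance. For Gbp8 the ratio was only 0.02 in the Xist libraries, 0.04 in the Ddx3y libraries and 0.21 in those with both. The share over all genes was not computed, and nothing is read from the signs. For Gbp3 the ratio was 1.58 in the Xist libraries, 1.29 in the Ddx3y libraries and 1.27 in those with both. For Irgm2 the values were 0.13, 0.77 and 0.81, and for Gbp6 0.10, 0.78 and 0.71, so these differed little between liver 1 and spleen 1.

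**Figure D3:**
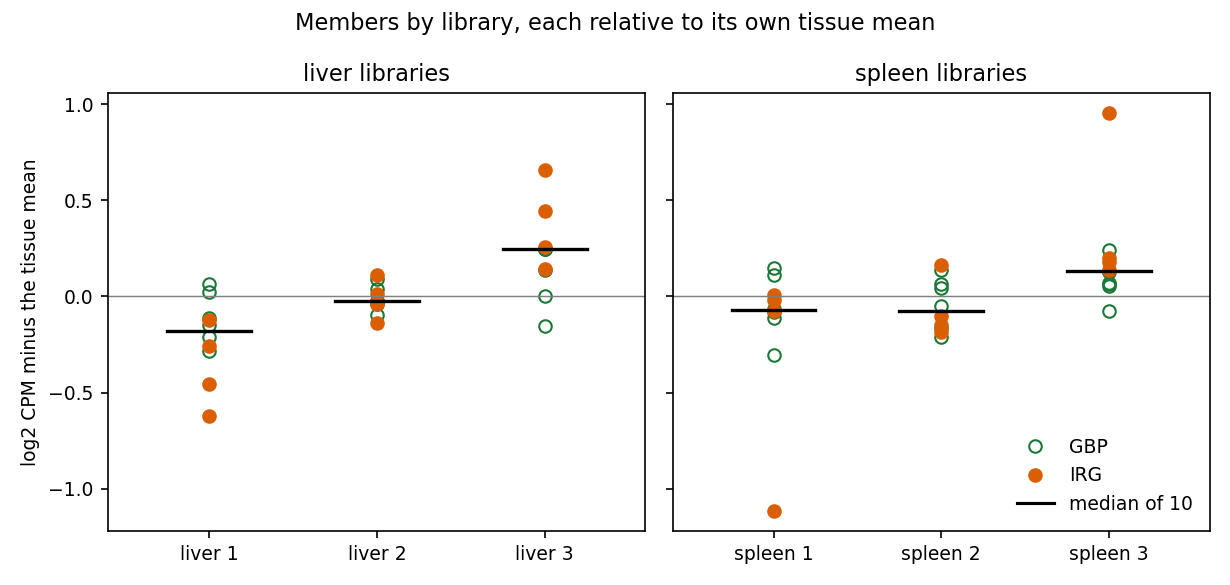
Log2 CPM of each member minus its mean in the same tissue, by library, for the 3 liver libraries (left) and the 3 spleen libraries (right), with GBP members as open and IRG members as filled points and the median of the 10 as a bar. The median is highest in liver 3 (0.25) and in spleen 3 (0.13), and the points farthest from 0 in spleen belong to Iigp1.

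Genes whose profile over the 6 libraries was most like the median profile of the members were sought among 8746 other genes of at least 10 CPM, by the root-mean-square difference of centred log2 CPM. The 5 nearest were Skap2 (0.0625), C230052I12Rik (0.0752), Sla (0.0820), Il12rb1 (0.0826) and Arl5c (0.0831). Il12rb1, a chain of the interleukin-12 receptor, had 108, 115 and 128 CPM in liver, against 82.6, 66.2 and 87.9 CPM in spleen. Sla, an adaptor that dampens T cell receptor signalling, had 275, 309 and 353 CPM in liver, against 205, 204 and 218 CPM in spleen. Skap2 had 14.5, 18.3 and 18.6 CPM in liver, against 12.0, 10.97 and 13.1 CPM in spleen. The likeness rests on 6 libraries and on liver values above spleen values, by which these genes were in part picked. Sla, Il12rb1 and Arl5c passed the edgeR threshold, while Skap2 and C230052I12Rik did not (edgeR adjusted p = 0.120 and 0.216).

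The receptor for interferon-gamma changed in opposite directions in its chains. Ifngr1, the ligand-binding chain, was at 575, 582 and 569 CPM in the liver libraries and 230, 217 and 222 CPM in the spleen libraries. It rose in liver with almost no spread within a tissue (liver minus spleen log2 value 1.37 ± 0.09, edgeR adjusted p = 2.68e-08). Ifngr2, the signalling chain, had 31.9, 38.2 and 31.9 CPM in liver, against 46.5, 68.4 and 61.5 CPM in spleen, and it fell in liver (-0.84 ± 0.15, edgeR adjusted p = 0.000669). Neither chain's libraries overlapped between tissues. The cytokine gene Ifng itself had 13.1, 8.07 and 11.2 CPM in liver, against 2.58, 1.89 and 3.50 CPM in spleen (1.997 ± 0.35, edgeR adjusted p = 0.000621). The spleen 1 value is at the 3-count level of that library. NK, innate lymphoid and CD8 T cells also express Ifng. Their markers, summed above, were at 105 to 134 CPM in liver and 47.7 to 57.3 CPM in spleen. Nkg7 alone averaged 63.1 CPM in liver and 23.8 CPM in spleen, while Cd8a and Cd8b1 did not pass. The part of these cells in the Ifng level was not tested.

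Of 12 tested signalling and transcription factor genes of the pathway, 4 rose, 1 fell and 7 did not pass, with a median log2 fold change of 0.09. Over all genes tested, 9.28% were called higher and 6.90% lower at this threshold. The list counts were also 4 and 1 at an unadjusted edgeR p under 0.05 and by DESeq2. Irf1, a transcription factor that the cytokine induces, had 279, 264 and 327 CPM in liver, against 255, 204 and 218 CPM in spleen (0.38 ± 0.11, edgeR adjusted p = 0.0214). It was highest in liver 3 within liver, as most members were. Within spleen it was highest in spleen 1, while most members were highest in spleen 3. The Irf1 call was lost without liver 1, liver 3, spleen 2 or spleen 3 (edgeR adjusted p = 0.0525, 0.0697, 0.158 and 0.0817). Irf8, a partner of Irf1 (0.77 ± 0.11, edgeR adjusted p = 0.000105) and Cebpb, a bZIP factor (1.12 ± 0.25, edgeR adjusted p = 0.00396) also rose, though Cebpb did not pass without spleen 2 (edgeR adjusted p = 0.0599). Ciita, the activator of MHC class II genes, fell (-2.24 ± 0.42, edgeR adjusted p = 0.000940), beside the lower B cell and macrophage markers given above. The kinase genes Jak1 (-0.18 ± 0.10, edgeR adjusted p = 0.252) and Jak2 (0.16 ± 0.10, edgeR adjusted p = 0.355) did not pass. Without spleen 2 the number that rose was 1, and without liver 3 it was 2. Over all genes, 722 of 11942 rose without spleen 2 and 944 of 12048 without liver 3.

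Genes that restrain the pathway were lower or did not pass. Of 8 tested, 2 fell in liver, 0 rose and 6 did not pass, with a median of -0.22. At an unadjusted p under 0.05 the edgeR counts were 4 lower and 0 higher, and DESeq2 called 2 lower and 0 higher. Socs1, the main feedback inhibitor of the interferon-gamma receptor kinases, had 40.4, 33.01 and 47.8 CPM in liver, against 74.0, 68.3 and 72.6 CPM in spleen (liver minus spleen log2 value -0.82 ± 0.14, edgeR adjusted p = 0.000592). Ptpn6, the phosphatase SHP-1, averaged 149 ± 12.4 CPM in liver, against 283 ± 20.6 CPM in spleen (-0.93 ± 0.10, edgeR adjusted p = 3.11e-06). Every liver library lay below every spleen library for both.

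Of 8 tested genes of the type 1 programme that drives interferon-gamma production, 5 rose, 2 fell and 1 did not pass (median 0.83). Over all genes tested, 9.28% were called higher and 6.90% lower at this threshold. The list counts were also 5 and 2 at an unadjusted edgeR p under 0.05 and by DESeq2. Tbx21 (2.38 ± 0.26), which encodes T-bet, rose, as did the gene of the chemokine receptor Cxcr3 (1.96 ± 0.15), a T-bet target. The interleukin-18 receptor genes Il18rap (1.58 ± 0.28) and Il18r1 (1.08 ± 0.15) and the interleukin-12 receptor gene Il12rb1 (0.58 ± 0.12) also rose. The edgeR adjusted p of these 5 genes was between 9.20e-08 for Cxcr3 and 0.00256 for Il12rb1. Eomes, which encodes a T-box factor related to T-bet, fell (-3.46 ± 0.47, edgeR adjusted p = 4.41e-05), as did the interleukin-27 receptor gene Il27ra (-0.30 ± 0.09, edgeR adjusted p = 0.0296). The Il27ra call was lost without liver 1, liver 2, spleen 2 or spleen 3 (edgeR adjusted p = 0.123, 0.115, 0.0668 and 0.156). Of the NK, innate lymphoid and CD8 T cell markers given above, which include Eomes, 5 of 10 tested were higher in liver and 1, Eomes, was lower.

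Other known targets of interferon-gamma rose in part. Of 25 tested, 7 rose, 0 fell and 18 did not pass, with a median of 0.28. The edgeR counts at an unadjusted p under 0.05 were 17 higher and 0 lower, and DESeq2 called 7 and 0. Over all 11716 genes the unadjusted counts were 1779 higher and 1542 lower. Ly6a (2.08 ± 0.19), the surface protein Sca-1, Serpina3g (1.28 ± 0.20), a protease inhibitor, the adhesion gene Icam1 (0.98 ± 0.14) and Samhd1 (0.45 ± 0.09), which limits nucleotide pools, rose with an edgeR adjusted p between 8.57e-07 and 0.00265. These 4 calls held with each library left out in turn. Psme2 (0.40 ± 0.12, edgeR adjusted p = 0.0325), a proteasome activator subunit, the peptide transporter gene Tap2 (0.37 ± 0.11, edgeR adjusted p = 0.0259) and the tRNA synthetase gene Wars (0.34 ± 0.11, edgeR adjusted p = 0.0397) rose with calls that depended on single libraries. Psme2 was lost without liver 3, spleen 1 or spleen 2 (edgeR adjusted p = 0.134, 0.0709 and 0.0704), Tap2 without liver 1, liver 3, spleen 2 or spleen 3 (edgeR adjusted p = 0.0609, 0.112, 0.118 and 0.0703) and Wars without liver 1, liver 2, spleen 2 or spleen 3 (edgeR adjusted p = 0.0734, 0.161, 0.280 and 0.170). Without spleen 2 the list count was 4.

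Genes better known from the type I interferon response gave no calls. Of 25 tested by edgeR, 0 rose and 0 fell at the adjusted threshold, with a median of 0.07. At an unadjusted p under 0.05 the counts were 2 higher and 1 lower, and DESeq2 called 0. Over all 11716 genes the unadjusted counts were 1779 higher and 1542 lower. The genes with the smallest p were Oasl1 (-1.46 ± 0.58, edgeR adjusted p = 0.105) and the nucleic acid sensor gene Zbp1 (0.25 ± 0.10, edgeR adjusted p = 0.122). That the type I list differs from the members or from the other interferon-gamma targets was not tested.

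Partners of the GTPases were examined last. Of 16 tested autophagy and ubiquitin genes, several of which place IRGs and GBPs on membranes, 4 rose, 0 fell and 12 did not pass (median 0.15). At an unadjusted p under 0.05 the edgeR counts were 5 and 0, and DESeq2 called 4 and 0. Lgals3, which binds damaged vacuoles, had 101, 103 and 126 CPM in liver, against 33.6, 22.2 and 29.7 CPM in spleen (2.02 ± 0.15, edgeR adjusted p = 6.65e-08). The autophagy kinase gene Ulk1 (0.44 ± 0.10, edgeR adjusted p = 0.00632), the autophagy receptor gene Sqstm1 (0.43 ± 0.10, edgeR adjusted p = 0.00795) and the LC3 gene Map1lc3b (0.31 ± 0.09, edgeR adjusted p = 0.0245) also rose. The Sqstm1 and Map1lc3b calls were both lost without liver 1 (edgeR adjusted p = 0.0544 and 0.101), spleen 2 (edgeR adjusted p = 0.0519 and 0.121) or spleen 3 (edgeR adjusted p = 0.0790 and 0.102), and that of Map1lc3b without liver 2 (edgeR adjusted p = 0.0727). Without liver 1, spleen 2 or spleen 3 the number that rose was 2.

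Of 8 inflammasome genes 3 rose, 0 fell and 5 did not pass (median 0.62). DESeq2 called 3 and 0, as did edgeR at an unadjusted p under 0.05. Pycard, the adaptor ASC, had 176, 182 and 213 CPM in liver, against 136, 105 and 109 CPM in spleen (0.75 ± 0.11, edgeR adjusted p = 0.000119). The DNA sensor gene Aim2 also rose (0.52 ± 0.13, edgeR adjusted p = 0.00821), and its call was lost without liver 2 or spleen 3 (edgeR adjusted p = 0.0604 and 0.0595). Il1b passed from very low levels, at 5.29, 2.38 and 1.67 CPM in liver, against 0.861, 0 and 0.171 CPM in spleen (edgeR adjusted p = 0.00250). Of 6 enzymes of prenylation, the lipid modification that anchors some GBPs, 0 passed by edgeR or DESeq2 and 1 was lower at an unadjusted p under 0.05. That was the farnesyltransferase gene Fntb (-0.52 ± 0.19, edgeR adjusted p = 0.0686), which passed without spleen 1 (edgeR adjusted p = 0.0438). The next smallest p belonged to Pggt1b (0.34 ± 0.20, edgeR adjusted p = 0.300).

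**Figure D4:**
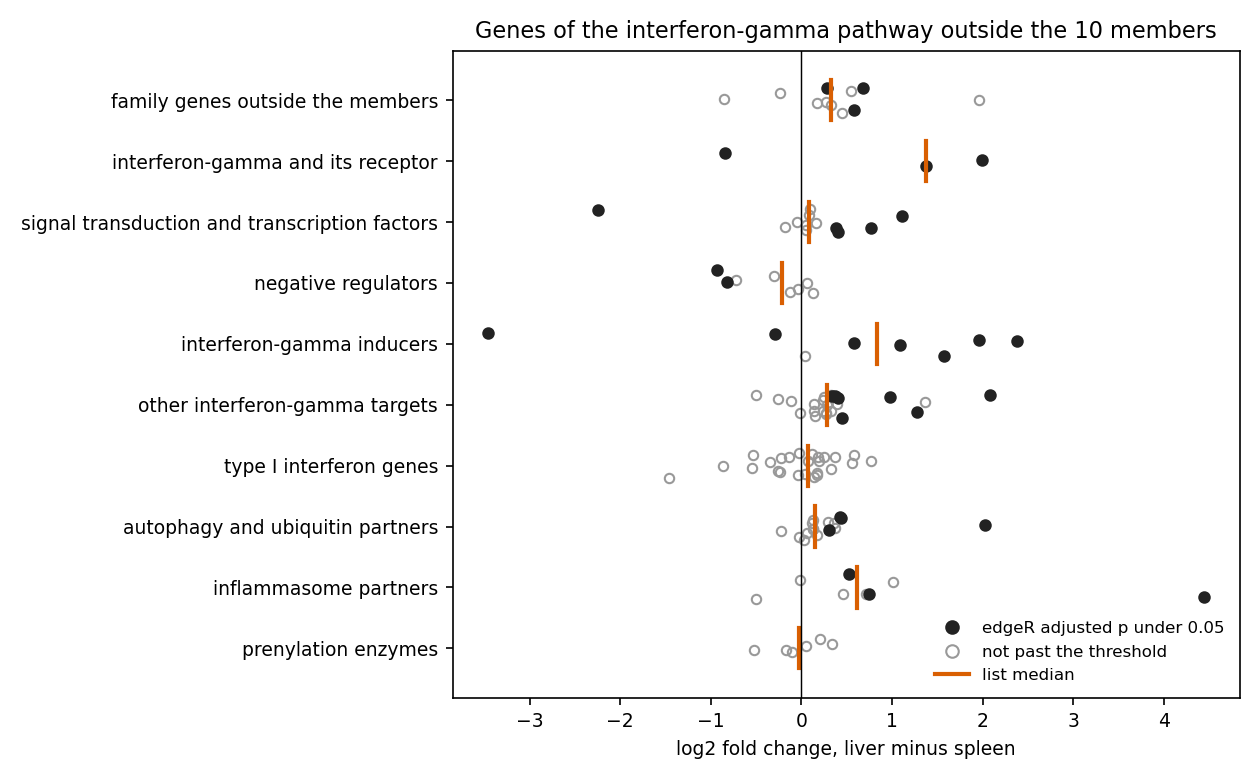
Log2 fold change, liver minus spleen, of each tested gene of 10 lists around the members (members left out), with filled points for an edgeR adjusted p under 0.05 and a bar at the list median. The lists run from interferon-gamma and its receptor (median 1.37, of 3 genes) to negative regulators (median -0.22, of 8 genes), and the 25 type I interferon genes have no filled point.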

How the data were processed

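The deposited table holds whole-number counts of reads for each gene symbol in each library, not normalized by the authors. The submitters' processing notes name HISAT2 2.1, HTSeq 0.11 and mm9. The strand setting and annotation were not given in the sources used here, and reads of a gene and of an antisense or overlapping partner may therefore be mixed. The 5 summary rows, which name no gene, took 25.5% to 29.0% of counts and were left out. Libraries were numbered within each tissue in accession order.

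Counts were filtered with filterByExpr, scaled by TMM and tested by edgeR 4.0.16 in R 4.3.3 (quasi-likelihood, Benjamini-Hochberg over 11716 genes). CPM are relative to TMM-scaled totals, and SEs come from the F statistic. The code was tested on simulated data. Every pair of libraries differed by more than counting noise, with a chi-square over its degrees of freedom of 4.71 or more.

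The members, gene lists and tests were chosen with earlier results of these data known. Named were all members and listed family genes, Foxp3, and for each other list the genes past the threshold and those with the 2 smallest p. The 5 genes nearest in profile and the 2 most abundant markers of each list were added. Il12rb1 falls under more than 1 part of this rule. Of the signalling list, 1 gene that the rule names is not reported here. The alternatives were DESeq2 1.42.0 size factors and Wald test, upper-quartile scaling, no filter, a filter of 5 CPM in 3 libraries, thinning to equal depth, and leaving out each library. A block on sex-linked transcripts was added after seeing the data. Transcript lengths and shared 50-base stretches are from GENCODE M21 and promoter sequences from RefSeq GRCm38.p6, a later build than mm9, so no coordinates are mixed. The 3-count level covers counting error only, since reads carry no molecular identifiers that the sources name. The labels do not say which animals each library came from. Liver 1 and liver 2, like spleen 1 and spleen 2, held different sex-linked transcripts, so they did not come from the same animals. Liver 3 and spleen 3 held both transcripts, and whether each was a pool was not tested. The p-values measure the spread between these libraries, which may be in part technical.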

Additional observations from a re-analysis of the deposited data

How the results depend on the processing

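The labels give the liver and spleen libraries no shared replicate numbers, so no pairing from the labels was fitted. A block on the sex-linked kinds, which pairs 1 liver with 1 spleen library and was added after seeing the data, gave 1121 genes higher in liver and 846 lower over all genes, and 32 and 7 over the pathway lists. As a description, the median log2 fold change of the members was 0.59 in all libraries and between 0.40 (without liver 3) and 0.75 (without liver 1) with 1 library left out. Of the single members, Gbp8 alone turned sign under an alternative: its log2 fold change was between -0.055 (without liver 3) and 0.16 (without spleen 3) with 1 library left out. Leaving out 1 library gave 722 to 1245 genes higher in liver and 486 to 989 lower over all genes, the lowest counts without spleen 2 and the highest without spleen 1. Over the pathway lists the same gave 18 to 31 genes higher and 5 to 8 lower, against 28 and 6 in all libraries. With every library thinned at random to the depth of spleen 1, 621 genes were higher in liver and 404 lower, of 9240 tested. In the pathway lists 16 were then higher, of 100 tested. No tested family gene and, leaving aside Jak1 and Jak2, no tested gene of the pathway lists that the text names turned sign in the alternatives that gave it a value. Jak1, Jak2, marker genes other than Foxp3 and Eomes, and the nearest genes in profile other than Il12rb1 were not refitted one by one. The single-gene calls that were lost with 1 library left out are given beside each gene. At equal depth Gbp4, Gbp5, Gbp10, Irf1, Tap2, Psme2, Wars, Map1lc3b, Ulk1 and Aim2 did not pass, while Ifng, Ciita, Il1b, Oasl1, Gbp1, Gm12185 and Gm5431 were too low to be tested. Gbp4 missed the threshold with DESeq2 size factors (edgeR adjusted p = 0.0568), upper-quartile scaling (edgeR adjusted p = 0.0829) and the Wald test (DESeq2 adjusted p = 0.0516). With upper-quartile scaling Psme2, Wars and Map1lc3b did not pass either, nor did Wars with the Wald test. Gm12250 passed with no filter on low counts (edgeR adjusted p = 0.0243) and with the block on sex-linked transcripts (edgeR adjusted p = 0.0197), and Fntb with upper-quartile scaling (edgeR adjusted p = 0.0466). The cause of these changes was not tested. The depth of spleen 1, where 3 counts are 2.58 CPM, limits the values of Iigp1, Gbp1, Ifng and Il1b.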
